A study of Homo sapiens with 16 samples.

Results

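The collagens described here are 10 genes of fibrillar, beaded filament and junctional collagens, COL1A1, COL1A2, COL3A1, COL5A1, COL5A2, COL6A1, COL6A2, COL7A1, COL12A1 and COL22A1, chosen by symbol from 57773 genes in each table. They were chosen with earlier results of these data known, so counts set against all genes describe the set and do not test it. They were measured by RNA-seq in A549, a line of epithelial cells established from a human lung adenocarcinoma, exposed to TGF-beta to induce an epithelial-mesenchymal transition. The groups were cells treated for 6, 12, 24, 36, 48, 72 and 96 h and cells at 0 h, with 2 libraries at each of the 8 times and 16 libraries in all. The labels give neither the dose of TGF-beta nor untreated cultures at the later times, so TGF-beta and time in culture cannot be told apart. All libraries come from 1 cell line, and nothing in the labels says that replicates 1 and 2 were separate cultures: the p-values below speak of the spread between libraries, which may be technical.

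Collagens are trimers of alpha chains, and a trimer forms only when its chains are made in the same cell. Types I, III and V are fibril-forming collagens: type I is the main collagen of scar and stroma, and type V starts fibrils and limits their width. Type VI makes beaded filaments near cell surfaces, type VII makes the anchoring fibrils that fasten an epithelium to its stroma, type XII binds the surface of fibrils, and type XXII is known from tissue junctions such as that between muscle and tendon. TGF-beta is a classical inducer of fibrillar collagen genes in fibroblasts, acting in part through SMAD transcription factors.

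Values are TPM, a relative transcript level corrected for gene length. Between 42.5% and 64.1% of the TPM of a library lay in 6 abundant small RNAs, so every other gene was scaled by what they left. TMM factors, a trimmed mean of ratios between libraries, ran from 0.704 in 48 h replicate 1 to 1.54 in 12 h replicate 1, which stood apart. The 36 h and 48 h libraries of replicate 2 listed 36116 and 36294 genes at 0, against 29278 to 31187 in the other libraries. Epithelial identity at 0 h was visible in the simple epithelial keratins KRT8, at 1616 and 1962 TPM, and KRT18, at 2045 and 2734 TPM. Other epithelial markers were lower at 0 h: KRT19 at 50.4 and 49.9 TPM, CDH1 at 14.5 and 27.6 TPM and EPCAM at 4.31 and 4.52 TPM. In bulk RNA, fewer cells of a type and less RNA per cell cannot be told apart.

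**Figure D1:**
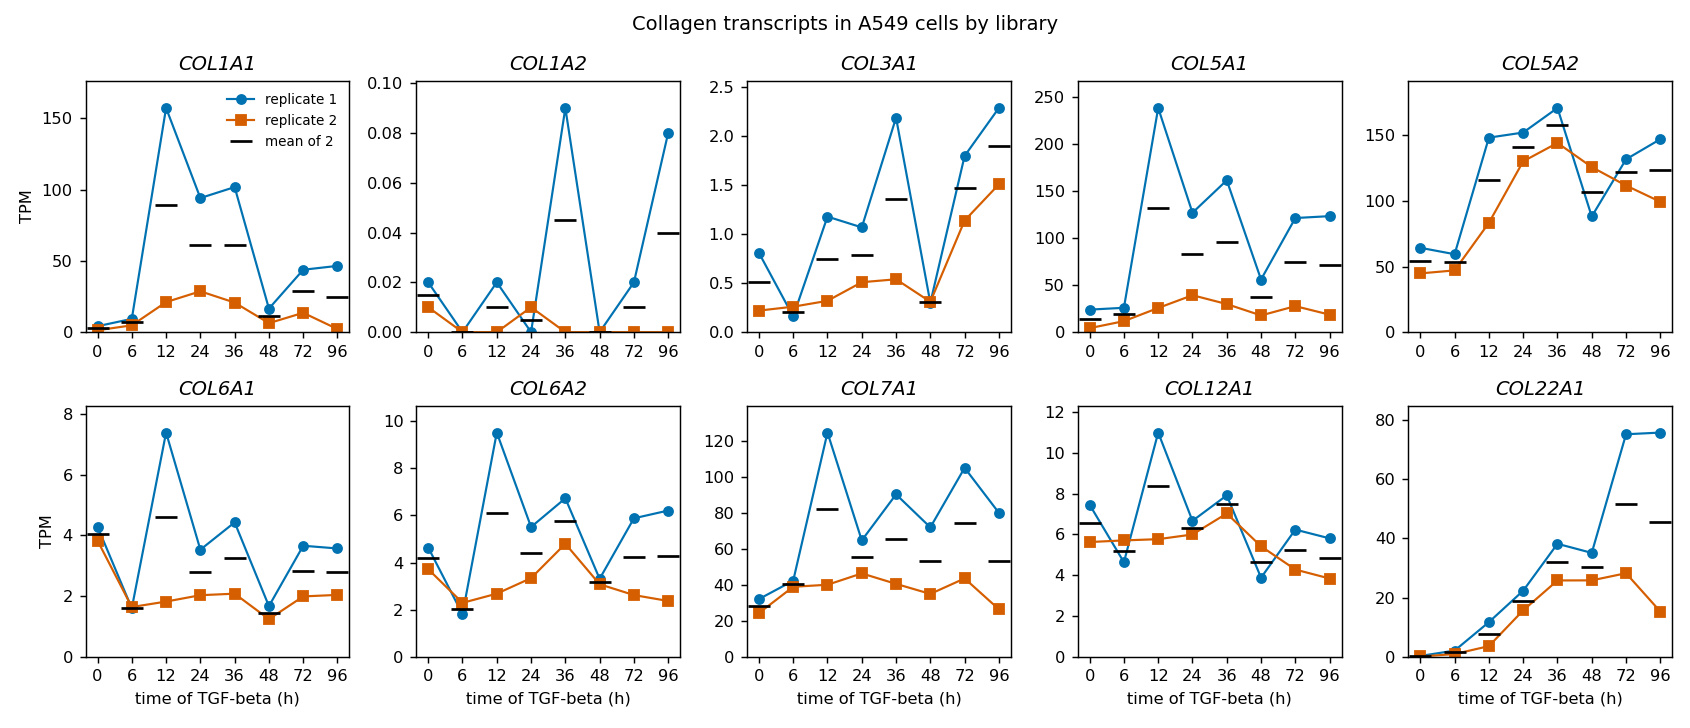
TPM of each collagen in each of the 16 libraries against hours of TGF-beta, with replicates 1 and 2 drawn as separate lines. COL22A1 is highest at 96 h in replicate 1 and at 72 h in replicate 2, whereas COL1A1 peaks at 12 h in replicate 1 and at 24 h in replicate 2, and COL1A2 stays at or below 0.09 TPM.

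COL22A1, the junctional chain, showed the largest fold increase among the 10 collagens. In replicate 1 it measured 0.28 TPM at 0 h, 2.09 TPM at 6 h, 11.7 TPM at 12 h, 22.3 TPM at 24 h, 38.2 TPM at 36 h, 35.1 TPM at 48 h, 75.1 TPM at 72 h and 75.7 TPM at 96 h. In replicate 2 it measured 0.10 TPM at 0 h, 0.92 TPM at 6 h, 3.60 TPM at 12 h, 15.7 TPM at 24 h, 25.8 TPM at 36 h, 25.8 TPM at 48 h, 28.2 TPM at 72 h and 15.3 TPM at 96 h. Both libraries of every treated time lay above both 0 h libraries, and replicate 1 was the higher of the pair at all 8 times. A tested gene needed at least 1 TPM in 2 libraries, and COL22A1 met this filter through treated libraries alone. The filter thus favoured a rise, and the p-values of COL22A1 describe the change rather than test it. On the log2(TPM + 1) scale, which understates the change of a gene this low at 0 h, the mean of the 24 to 96 h libraries exceeded 0 h by 4.75 (SE 0.52, limma adjusted p = 0.000412), and this call held when any 1 of the 12 libraries was left out. All 5 single times from 24 h onward were called, with log2 differences of 4.06 (limma adjusted p = 0.0148), 4.77 (0.00357), 4.71 (0.00334), 5.31 (0.00204) and 4.90 (0.00434) in order of time. The 24 h call was lost without any 1 of its 4 libraries, where the adjusted p lay between 0.0659 and 0.197. Without 0 h replicate 2 the limma adjusted p was 0.0636 at 36 h, 0.0595 at 48 h and 0.0848 at 96 h, and without 36 h replicate 2 it was 0.052 at 36 h. The 12 h difference of 2.69 missed the threshold (limma adjusted p = 0.117) and passed it with the replicate number as a block (0.00491).

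COL5A2, a chain of type V collagen, was the most abundant of the 10 collagens in each of the 10 libraries from 24 h onward. Replicate 1 held 64.3 TPM at 0 h, 59.4 TPM at 6 h, 148 TPM at 12 h, 152 TPM at 24 h, 171 TPM at 36 h, 88.2 TPM at 48 h, 132 TPM at 72 h and 147 TPM at 96 h. Replicate 2 held 44.8 TPM at 0 h, 47.1 TPM at 6 h, 83.3 TPM at 12 h, 130.2 TPM at 24 h, 144 TPM at 36 h, 126 TPM at 48 h, 112 TPM at 72 h and 99.4 TPM at 96 h. All libraries from 12 h onward lay above both 0 h libraries, the 6 h libraries did not, and both replicates peaked at 36 h, at 2.66 and 3.22 times their own 0 h level. The mean of 24 to 96 h exceeded 0 h by 1.24 on the log2 scale (SE 0.24, limma adjusted p = 0.00962), and without 0 h replicate 2 the adjusted p was 0.327. Of the single times only 36 h passed, with a log2 difference of 1.53 (SE 0.31, limma adjusted p = 0.0233), and that call was lost without any 1 of its 4 libraries (0.0575 to 0.335). With the replicate block, 5 of the 7 treated times passed.

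COL5A1, the partner chain of COL5A2 in type V collagen, was higher in replicate 1 at every time. Its level in replicate 1 was 23.9 TPM at 0 h, 25.9 TPM at 6 h, 238 TPM at 12 h, 127 TPM at 24 h, 161 TPM at 36 h, 55.95 TPM at 48 h, 121 TPM at 72 h and 123 TPM at 96 h. In replicate 2 it was 4.24 TPM at 0 h, 11.7 TPM at 6 h, 25.7 TPM at 12 h, 39.3 TPM at 24 h, 29.9 TPM at 36 h, 17.8 TPM at 48 h, 27.6 TPM at 72 h and 18.6 TPM at 96 h. Within each replicate every treated library was above its 0 h library, but both treated libraries exceeded both 0 h libraries at only 4 of the 7 times. At 24 to 96 h its mean exceeded 0 h by 2.26 on the log2 scale (SE 0.97, limma adjusted p = 0.186), and with the replicate block the same difference had an SE of 0.30 and an adjusted p of 0.000315. At 12 h the log2 difference was 2.80, and it was 1.22 without 12 h replicate 1, which stood apart in its scaling.

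COL1A1, the chain that type I collagen cannot form without, gave the highest peak over its own start among the fibril-forming chains. In replicate 1 it measured 4.16 TPM at 0 h, 9.32 TPM at 6 h, 157 TPM at 12 h, 94.1 TPM at 24 h, 102 TPM at 36 h, 16.5 TPM at 48 h, 43.8 TPM at 72 h and 46.5 TPM at 96 h. In replicate 2 it measured 1.32 TPM at 0 h, 4.78 TPM at 6 h, 21.1 TPM at 12 h, 28.7 TPM at 24 h, 20.7 TPM at 36 h, 6.31 TPM at 48 h, 13.6 TPM at 72 h and 2.16 TPM at 96 h. The peak was 37.8 times the 0 h level in replicate 1, at 12 h, and 21.7 times in replicate 2, at 24 h. Both libraries lay above both 0 h libraries at 6 of the 7 times, and the exception was 96 h, where replicate 2 lay below the 0 h library of replicate 1. The mean of 24 to 96 h exceeded 0 h by 2.83 on the log2 scale (SE 0.96, limma adjusted p = 0.0958), and with the replicate block COL1A1 rose by the same amount (SE 0.43, adjusted p = 0.000988). With 1 of the 12 libraries left out the unblocked limma adjusted p lay between 0.0235, without 96 h replicate 2, and 0.684, without 0 h replicate 2, and passed in 1 of 12 cases. With the block, 12, 24, 36 and 72 h passed, with log2 differences of 4.10, 3.94, 3.77 and 2.88, and the 12 h difference was 2.68 without 12 h replicate 1.

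COL1A2, which supplies the other chain of the usual type I trimer, stayed at or near 0. It was listed at 0 in 9 of the 16 libraries and its highest value was 0.09 TPM, in 36 h replicate 1, so it was the 1 collagen of the 10 that did not reach 1 TPM in 2 libraries and was not tested. COL1A1 thus reached 157 TPM in a library in which COL1A2 stood at 0.02 TPM. The depth behind the TPM values is unknown, so no upper limit can be put on the COL1A2 values of 0 and no fold is given.

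COL3A1, the fibril-forming chain of type III collagen and a frequent companion of type I, stayed low. It measured 0.81 and 0.22 TPM at 0 h in replicates 1 and 2, and its highest values, 2.29 and 1.51 TPM, were at 96 h in both replicates. Libraries at 72 and 96 h, but at no earlier time, both exceeded both 0 h libraries. At 24 to 96 h its mean differed from 0 h by 0.46 on the log2 scale (SE 0.29, limma adjusted p = 0.379), and with the block the adjusted p was 0.203. COL3A1 lies on chromosome 2 at chr2:188974320-189012746 on the plus strand and COL5A2 is its neighbour at chr2:189031896-189225312 on the minus strand (GENCODE 29, GRCh38), and the adjacent genes thus stood at 1.17 ± 0.76 TPM and 130 ± 25.2 TPM (SD, n = 10 libraries from 24 to 96 h).

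COL7A1, the chain of anchoring fibrils, was already the second most abundant of the 10 at 0 h and lay higher in most treated libraries. In replicate 1 it measured 32.0 TPM at 0 h, 42.2 TPM at 6 h, 124 TPM at 12 h, 64.6 TPM at 24 h, 90.1 TPM at 36 h, 71.8 TPM at 48 h, 105 TPM at 72 h and 79.9 TPM at 96 h. In replicate 2 it measured 24.2 TPM at 0 h, 38.9 TPM at 6 h, 39.97 TPM at 12 h, 46.3 TPM at 24 h, 40.5 TPM at 36 h, 34.9 TPM at 48 h, 43.5 TPM at 72 h and 26.4 TPM at 96 h. Both libraries exceeded both 0 h libraries at every time but 96 h, while the peak was 3.89 times the 0 h level in replicate 1, at 12 h, and 1.91 times in replicate 2. Both points depended on scaling. After TMM scaling the replicate 1 peak was 101.9 at 48 h, with 80.7 at 12 h. The 96 h values, 64.6 and 34.5, then exceeded both 0 h values, 28.1 and 20.0. The mean of 24 to 96 h differed from 0 h by 0.96 on the log2 scale (SE 0.49, limma adjusted p = 0.268). With the replicate block the SE was 0.26 and the adjusted p was 0.0284. Of the single times, 7 of 7 were called with TMM scaling and the block, and 0 with TMM scaling alone.

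COL6A1 and COL6A2, partner chains of type VI filaments and neighbours on the plus strand of chromosome 21 at chr21:45981737-46005050 and chr21:46098097-46132849, were low and did not pass over the course. Across 24 to 96 h COL6A1 averaged 2.62 ± 1.07 TPM and COL6A2 averaged 4.39 ± 1.62 TPM (SD, n = 10 libraries each), against 4.06 ± 0.33 TPM for COL6A1 and 4.18 ± 0.65 TPM for COL6A2 at 0 h (SD, n = 2). COL6A1 lay below both 0 h libraries in both replicates at 5 of the 7 times, which was so for COL6A2 at 2 times. The same held for 61.8%, 37.1%, 62.3%, 41.5% and 31% of tested genes at 6, 24, 48, 72 and 96 h, the 5 times of COL6A1. The mean of 24 to 96 h differed from 0 h by -0.54 for COL6A1 (SE 0.36, limma adjusted p = 0.414) and by 0.00 for COL6A2 (SE 0.38, adjusted p = 0.999). COL6A1 was called lower at 48 h with the replicate block (log2 difference -1.05, limma adjusted p = 0.0499), at a time when 14.9% of tested genes were called lower by that fit. The call was lost with TMM scaling and the block (-0.66, limma adjusted p = 0.0686). COL6A3, which completes the usual type VI trimer, did not pass the filter and lay between 0.10 and 0.86 TPM from 24 to 96 h, against 0.10 and 0.01 TPM at 0 h.

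COL12A1, a fibril-associated collagen, stayed within a narrow range. It measured between 3.84 and 7.92 TPM from 24 to 96 h, against 7.46 and 5.63 TPM at 0 h, and its highest value was 11 TPM, in 12 h replicate 1. At 24 to 96 h its mean differed from 0 h by -0.19 on the log2 scale (SE 0.25, limma adjusted p = 0.693), and with TMM scaling the difference was 0.04.

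**Figure D2:**
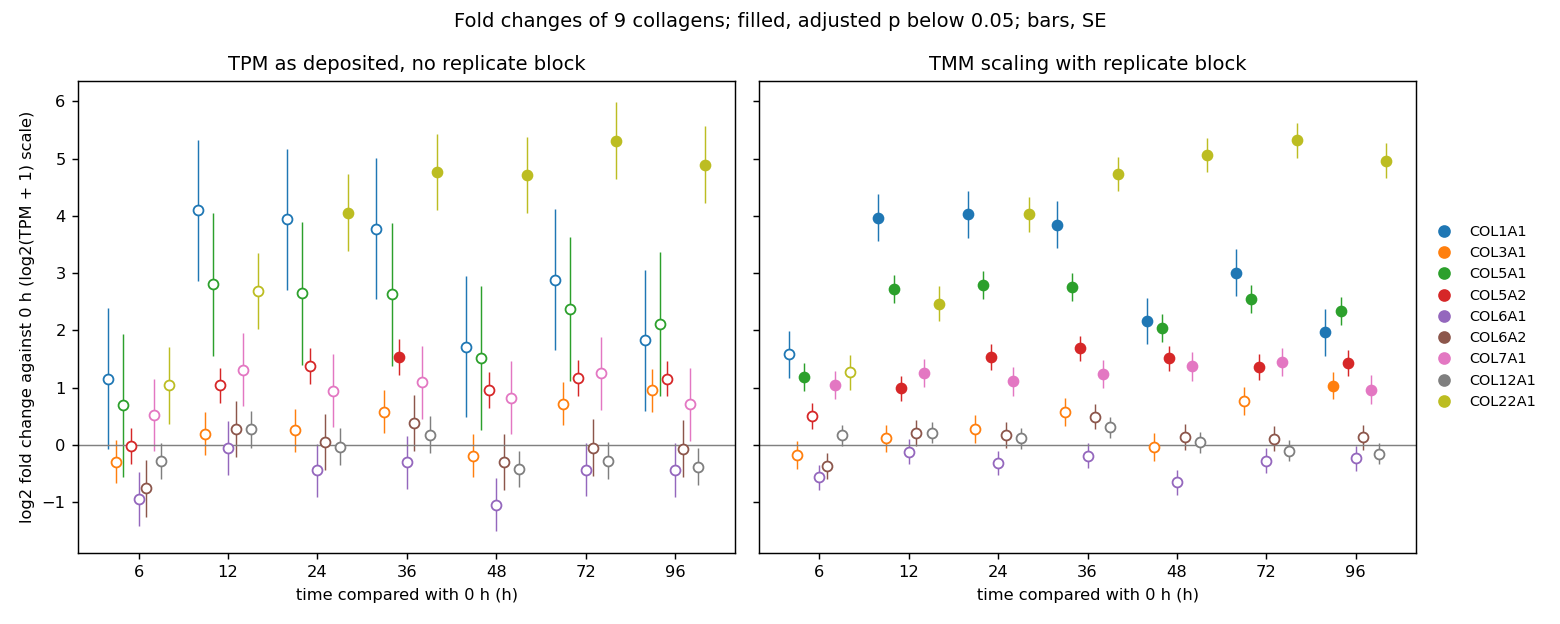
Log2 difference from 0 h of the 9 tested collagens at each treated time, with SE bars and filled points where the limma adjusted p was below 0.05. The left panel uses TPM as deposited without a block and calls COL22A1 and COL5A2, and the right panel uses TMM scaling with the replicate block and also fills points of COL1A1, COL5A1 and COL7A1, with COL3A1 filled at 1 time.

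Of the 9 tested collagens, limma called 0, 0, 1, 2, 1, 1 and 1 higher at the 7 treated times in order from 6 to 96 h. Of all 16967 tested genes it called 0%, 0.253%, 0.613%, 0.967%, 0.796%, 0.831% and 0.536% higher at these times. It called 0 of the 9 lower at each, against 0.0177%, 0.13%, 0.595%, 1.33%, 6.8%, 1.74% and 1.26% of all tested genes. At an unadjusted p below 0.05 the tested collagens numbered 0 at 6 h and 4 at 12 h. For the mean of 24 to 96 h, 2 of 9 were called higher, against 1.77% of all tested genes, and 0 were called lower, against 5.35%. The median difference of the 9 collagens was 0.96 on the log2 scale in that comparison and that of all tested genes was -0.23. All comparisons with 0 h share the same 2 libraries. These calls came from the fit without the replicate block, which counted the difference between replicates as spread. For the mean of 24 to 96 h the SE of COL5A1 was 0.97 without the block and 0.30 with it. The counts without the block thus ignore the pairing of libraries by replicate number.

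With the replicate block, the calls higher among the 9 were 0, 3, 4, 4, 3, 5 and 3 at the same times in order. That fit called 0.0236%, 1.92%, 1.87%, 2.48%, 1.7%, 2.08% and 1.5% of all tested genes higher. For the mean of 24 to 96 h it called COL1A1, COL5A1, COL5A2, COL7A1 and COL22A1, 5 of 9, against 3.45% of all genes. With TMM scaling and the block together the same number was called, against 7.6% of all genes, and the median difference was 1.22 for the collagens and -0.02 for all genes. A test over all 8 times called COL22A1 alone (limma adjusted p = 0.00643, 1.72% of genes called), and with the block it called COL1A1 (0.00302), COL5A1 (0.00274), COL5A2 (0.00796) and COL22A1 (4.24e-05), against 6.13% of genes.

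Counted without a model, both libraries of a treated time lay above both 0 h libraries for 3, 5, 5, 6, 4, 6 and 3 of the 9 collagens from 6 to 96 h in order. The same held for 5.66%, 15.2%, 15.2%, 15.3%, 6.61%, 13.8% and 7.6% of tested genes. Both lay below both 0 h libraries for 2, 0, 1, 0, 3, 1 and 1 of the 9 collagens, against 61.8%, 16.1%, 37.1%, 33.2%, 62.3%, 41.5% and 31% of tested genes. The 3 collagens above at 96 h were COL3A1, COL5A2 and COL22A1. The late times compared with earlier treated times gave 0 of 9 calls for the mean of 72 and 96 h against the mean of 24 and 36 h by limma (0.0354% of genes were called higher and 0.0648% lower), and 0 at an unadjusted p below 0.05. COL1A1 had a difference of -1.50 in that comparison (limma adjusted p = 0.926, and 0.143 with the block). With TMM scaling and the block COL1A1 fell by 1.45 (limma adjusted p = 0.028), the 1 collagen called lower, against 1% of genes.

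**Figure D3:**
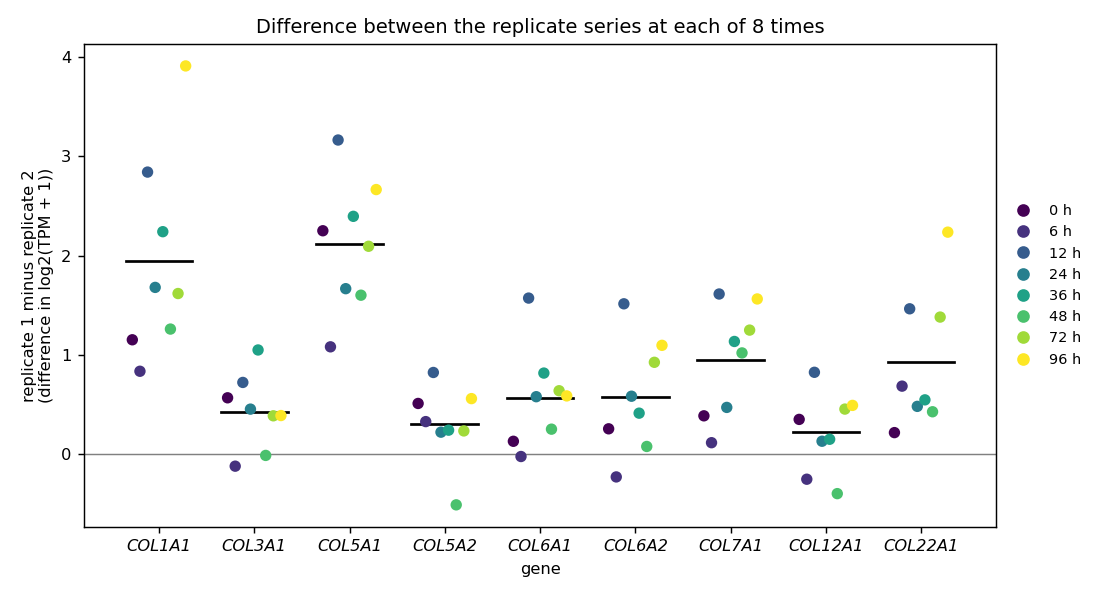
Log2 difference of replicate 1 over replicate 2 for the 9 tested collagens over the 8 times. COL5A1 and COL1A1 have the largest mean differences, and all 9 mean differences are above 0.

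The replicate itself was associated with collagen level. Replicate 1 exceeded replicate 2 by 2.12 on the log2 scale for COL5A1 (SE 0.19, limma adjusted p = 3.3e-05), by 1.94 for COL1A1 (SE 0.28, 0.00147), by 0.95 for COL7A1 (SE 0.17, 0.00473), by 0.93 for COL22A1 (SE 0.20, 0.0142) and by 0.57 for COL6A1 (SE 0.17, 0.0473). These 5 of 9 were called higher in replicate 1, against 8.32% of all tested genes, and 0 were called lower, against 2.48%. The median difference was 0.58 for the 9 collagens and 0.14 for all tested genes, and after TMM scaling it was 0.42 for the collagens and -0.01 for all genes. COL1A1, COL5A1, COL7A1 and COL22A1 were higher in replicate 1 at all 8 times, which held for 5.23% of tested genes. COL5A2 (0.30) and COL12A1 (0.22) differed less and were not called. The summed level of 12 fibroblast marker genes ran from 2.14 to 7.62 TPM in replicate 1 and from 1.88 to 7.68 TPM in replicate 2, and was higher in replicate 1 at 5 of 8 times.

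The partner chains of a trimer were compared by their log2 ratio, with 10 libraries from 24 to 96 h set against 6 libraries from 0 to 12 h in exact two-sided permutation tests over 8008 splits. The COL6A1 to COL6A2 ratio was -0.57 ± 0.24 at 24 to 96 h and -0.20 ± 0.17 at 0 to 12 h (SD, n = 10 and 6), a difference of -0.37 (exact permutation p = 0.00637, adjusted over the 3 ratios 0.0191). Permuting within replicates gave an adjusted exact p of 0.0277, and with any 1 library left out the exact p lay between 0.0014 and 0.017. The lower ratio lasted to the end in replicate 1 only, at -0.56 at 72 h and -0.66 at 96 h. Replicate 2 stood at -0.28 at 72 h and -0.15 at 96 h, above its own values at 6 h (-0.32) and 12 h (-0.38). The COL5A1 to COL5A2 ratio was -1.24 ± 1.06 at 24 to 96 h and -1.43 ± 1.24 at 0 to 12 h, a difference of 0.19 that did not pass (exact permutation p = 0.745). In linear terms COL5A1 had 1.61 times the level of COL5A2 in 12 h replicate 1 and 0.31 times in 12 h replicate 2, so this ratio followed the replicate. The COL1A1 to COL1A2 ratio differed by 1.06 between the periods (exact permutation p = 0.266) and largely restated COL1A1, since COL1A2 was near 0 throughout. Libraries of successive times were treated as exchangeable in these tests.

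**Figure D4:**
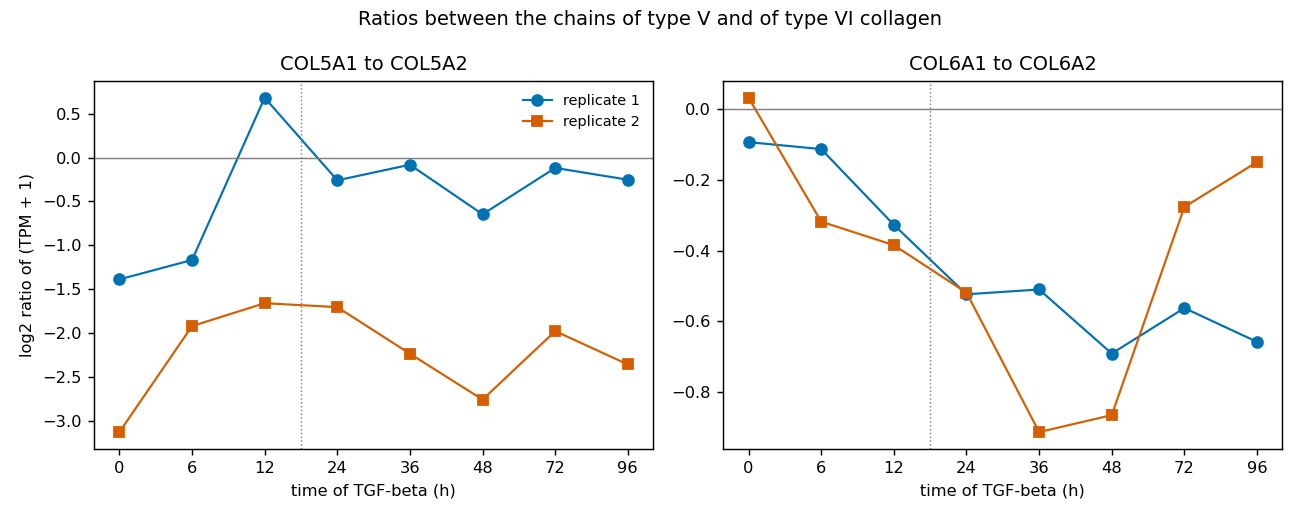
Log2 ratio of partner chains in each library against hours of TGF-beta, on TPM + 1, with replicates drawn separately. The COL6A1 to COL6A2 ratio averages -0.57 from 24 to 96 h and -0.20 from 0 to 12 h, but replicate 2 is at -0.28 at 72 h and -0.15 at 96 h. The COL5A1 to COL5A2 ratio is higher in replicate 1 than in replicate 2 at all 8 times.

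Ordered by level per length, the 10 libraries from 24 to 96 h gave COL5A2 at 130 ± 25.2 TPM, COL5A1 at 72.2 ± 54.7 TPM, COL7A1 at 60.3 ± 26.0 TPM, COL1A1 at 37.4 ± 35.0 TPM and COL22A1 at 35.7 ± 22.1 TPM (SD, n = 10). Neighbours in this order overlapped: COL5A1 was above COL7A1 in 4 of 10 libraries, COL7A1 above COL1A1 in 8 and COL1A1 above COL22A1 in 3. COL5A1 was above COL1A1, and COL7A1 above COL22A1, in 10 of 10. COL12A1, COL6A2, COL6A1 and COL3A1 followed, each above the next in at least 9 of 10 libraries. At 0 h the order differed: COL5A2 (54.5 TPM) and COL7A1 (28.1 TPM) led, COL1A1 (2.74 TPM) was below COL12A1 (6.55 TPM), and COL22A1 (0.19 TPM) was below COL3A1 (0.52 TPM).

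**Figure D5:**
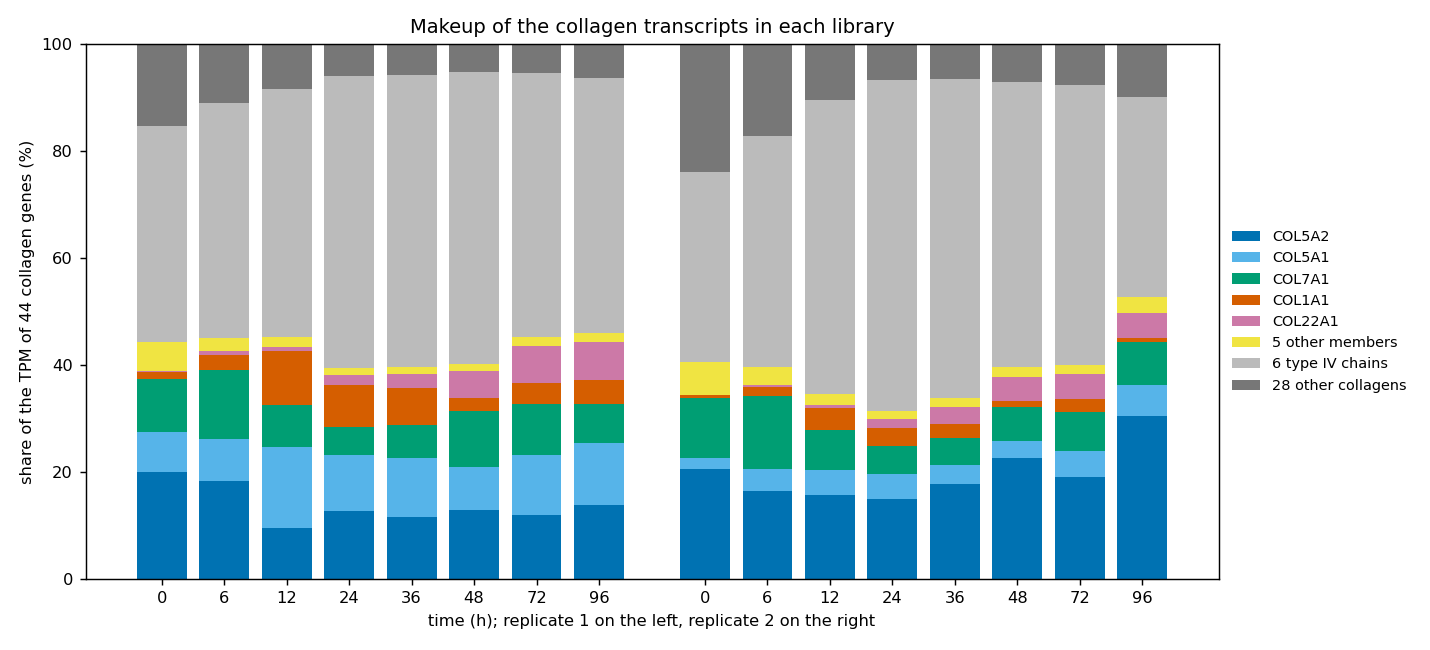
Share in percent of the summed TPM of 44 collagen genes held by the leading collagens, the type IV chains and the rest, for each of the 16 libraries. COL22A1 holds 7.08% and 4.68% at 96 h in replicates 1 and 2, against 0.087% and 0.046% at 0 h.

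As a share of the summed TPM of 44 collagen genes, a measure that the small RNA content does not scale, COL22A1 held 7.08% and 4.68% at 96 h in replicates 1 and 2, against 0.087% and 0.046% at 0 h. COL1A1 held 7.77% and 3.3% at 24 h in replicates 1 and 2, against 1.30% and 0.61% at 0 h. The COL5A2 share was 20.0% and 20.6% at 0 h in replicates 1 and 2, and lower in both at 6, 12, 24, 36 and 72 h. At 48 and 96 h the replicates moved in opposite directions. They held 12.8% and 22.6% at 48 h, and 13.8% and 30.5% at 96 h. The chains of type IV collagen, which forms basement membrane networks, held between 35.4% and 61.9% across the libraries.

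Promoter sequence was available in RefSeq (GRCh38.p14) for COL5A1, COL6A2, COL7A1 and COL12A1, 4 of the 10 genes. The 250 bases before the RefSeq start are shown for COL5A1 and COL7A1, which rose with the block, and COL12A1, which did not pass. The sequence is in lower case, written 5′ to 3′ on the strand of the gene, and capitals mark matches on either strand to GGGCGG (the GC box bound by Sp1), CAGACA (a SMAD-binding motif) or TATAAA (the TATA box). The COL7A1 window precedes the RefSeq start, which lies upstream of the GENCODE 29 start of the gene at 48595267, so it does not adjoin that start. The COL5A1 and COL6A2 windows run past the GENCODE 29 starts, at 134641774 and 46098097, so their last bases lie inside those genes. The windows are chr9:134641553-134641802 on the plus strand for COL5A1, chr3:48595330-48595579 on the minus strand for COL7A1 and chr6:75206054-75206303 on the minus strand for COL12A1.
COL5A1: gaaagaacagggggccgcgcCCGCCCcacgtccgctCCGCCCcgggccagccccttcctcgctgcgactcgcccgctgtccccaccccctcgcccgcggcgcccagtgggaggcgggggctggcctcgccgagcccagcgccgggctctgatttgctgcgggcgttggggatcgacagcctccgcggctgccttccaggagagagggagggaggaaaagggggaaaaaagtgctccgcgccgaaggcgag
COL7A1: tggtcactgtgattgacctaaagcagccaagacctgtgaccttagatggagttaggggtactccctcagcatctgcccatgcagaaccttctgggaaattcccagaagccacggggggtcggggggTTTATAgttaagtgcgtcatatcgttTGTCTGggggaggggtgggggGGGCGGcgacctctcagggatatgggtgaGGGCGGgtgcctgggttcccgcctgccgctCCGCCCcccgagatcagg
COL12A1: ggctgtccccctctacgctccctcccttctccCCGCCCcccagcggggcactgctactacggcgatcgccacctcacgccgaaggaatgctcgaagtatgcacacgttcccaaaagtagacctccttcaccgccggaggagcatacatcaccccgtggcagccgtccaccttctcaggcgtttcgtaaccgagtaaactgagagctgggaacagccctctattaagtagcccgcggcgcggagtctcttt
These windows held 2 GGGCGG matches in COL5A1, 3 in COL7A1 and 1 in COL12A1, and COL6A2 held 4, whereas 42.6% of 35116 promoters of the same length held at least 1. CAGACA was found in COL7A1 alone of the 4, with 13.6% of promoters holding it, and TATAAA in COL7A1 and COL6A2, with 10.7% of promoters holding it. Neither CCAAT (32% of promoters) nor the AP-1 motif TGACTCA (4.2%) occurred in the 4 windows. GC content was 74% for COL5A1, 79.6% for COL6A2, 60.8% for COL7A1 and 61.2% for COL12A1, with a median of 58% over all promoters. A match is a run of letters, not a measured binding site.

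Genes that build, shape, bind or cut collagen were described beside the collagens, each list by its members called for the mean of 24 to 96 h against 0 h. In that comparison 1.77% of all tested genes were called higher and 5.35% lower. The share called higher was 3.45% with the block, 4.28% with TMM scaling and 7.6% with both. Of 18 tested genes of hydroxylation, folding and secretion, 2 rose (5 with TMM scaling and the block) and 0 fell. P4HA3, a prolyl hydroxylase subunit, averaged 70.2 ± 14.1 TPM at 24 to 96 h and 9.64 ± 6.75 TPM at 0 h (log2 difference 2.87, limma adjusted p = 0.00084). P4HA2, of the same enzyme family, averaged 36.2 ± 8.43 TPM and 19.4 ± 0.81 TPM at the same times (0.83, adjusted p = 0.0238). Of 10 tested genes of procollagen cleavage and crosslinking, 2 rose, namely FURIN (1.36, limma adjusted p = 0.0227) and BMP1 (1.33, 0.0276), proteases that act on precursors, and PCOLCE2, an enhancer of procollagen cleavage, fell (-0.79, 0.034). The PCOLCE2 call was lost with TMM scaling (-0.55, limma adjusted p = 0.0896). With the block TGM2, a crosslinking transglutaminase named after its values were seen, also passed (1.70, limma adjusted p = 8.82e-05, and 0.176 without the block), and with TMM scaling and the block 6 of the 10 rose. Of 4 tested genes of fibril assembly, FN1, the fibronectin on which collagen fibrils are laid, rose by 2.54 (limma adjusted p = 0.0056) and SPARC, a collagen-binding matricellular protein, by 2.63 (0.0322).

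Among 10 tested collagen receptors 2 rose (6 with TMM scaling, 4 under the block) and 0 fell. ITGA11, an integrin chain that binds fibrillar collagen, averaged 48.2 ± 25.3 TPM at 24 to 96 h and 2.40 ± 2.38 TPM at 0 h (log2 difference 3.90, limma adjusted p = 0.00277). ITGA2, another collagen-binding integrin chain, rose by 2.16 (limma adjusted p = 0.00737). Among 8 tested collagen-degrading proteases and their inhibitors 3 rose: MMP2, a gelatinase (4.31, limma adjusted p = 0.0118), TIMP2, an inhibitor of metalloproteases (2.18, 0.0308), and MMP1, a collagenase at 3.83 ± 2.67 TPM at 24 to 96 h that was named after its values were seen (2.02, 0.00859). TIMP3, another inhibitor named after its values were seen, passed with the block (1.24, limma adjusted p = 0.00684, and 0.183 without it). At 0 h in replicates 1 and 2, MMP1 held 0 and 0.03 TPM and TIMP3 held 0.35 and 0.01 TPM. MMP1 and TIMP3 met the filter of 1 TPM in 2 libraries through treated libraries alone, which favoured a rise. Of 12 tested network, transmembrane and multiplexin collagens 3 rose (5 with the replicate block), COL4A1 (3.07, limma adjusted p = 0.00338), COL4A2 (2.20, 0.0338) and COL4A4 (1.42, 0.0115). Of 3 tested fibril-associated collagens outside the set, COL21A1, also named after its values were seen, fell (-1.06, limma adjusted p = 0.029), a call lost with TMM scaling alone (-0.89, 0.0845). COL21A1 held 1.89 and 1.59 TPM at 0 h and at most 1.08 TPM from 24 to 96 h. It thus met the filter of 1 TPM in 2 libraries through its 0 h libraries, which favoured a fall.

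Known responders to TGF-beta and epithelial genes give the state of the same cells. For the mean of 24 to 96 h, 1.77% of all tested genes were called higher and 5.35% lower. With TMM scaling 3.68% were called lower, and with TMM scaling and the block 7.6% were called higher. Among TGF-beta responders, PMEPA1, an inhibitor of TGF-beta signalling, rose by 2.61 (limma adjusted p = 0.004) and TGFBI, a secreted matrix protein, by 2.48 (0.00058). CTGF (2.63, limma adjusted p = 0.0992), LTBP2 (1.59, 0.0885), SKIL (1.22, 0.181) and SMAD7 (0.83, 0.276) did not pass. With the block CTGF (limma adjusted p = 0.0041), LTBP2 (0.0012) and SMAD7 (0.0442) passed and SKIL (0.055) did not. Of 5 simple epithelium markers 4 fell, among them CDH1, the adherens junction cadherin (-3.00, limma adjusted p = 0.00311), KRT19 (-2.74, 0.00207) and KRT18 (-1.19, 0.0046), and 2 of the 5, CDH1 and KRT19, did with TMM scaling. EPCAM, an epithelial adhesion molecule, passed with the block (-0.90, limma adjusted p = 0.029, and 0.143 without it). Of 12 fibroblast markers only 3 passed the filter and 0 were called (1 with TMM scaling and the block). Their summed level was 2.48 to 7.68 TPM at 24 to 96 h and 2.55 to 3.66 TPM at 0 h, and the highest value of a single marker in any library was 2.33 TPM for THY1, 2.25 TPM for PDGFRB, 2.2 TPM for MFAP5, 1.89 TPM for MFAP4 and 1.86 TPM for LUM, with the other 7 between 0.03 TPM (DPT) and 0.80 TPM (DCN). PDGFRB averaged 0.42 ± 0.67 TPM at 24 to 96 h and 0.03 ± 0.02 TPM at 0 h. Of 6 endothelial markers 1 was tested, ESAM, and it rose by 1.42 (limma adjusted p = 0.0116) to 3.53 ± 2.41 TPM. Of 6 leukocyte markers 3 were tested and CD14 fell by 1.11 (limma adjusted p = 0.00408). Both were named after their values were seen. ESAM held 0.55 and 0.37 TPM at 0 h. CD14 held 1.05 and 1.82 TPM at 0 h, and at most 0.39 TPM from 24 to 96 h. The filter of 1 TPM in 2 libraries thus favoured both changes. The part of other cell types in the collagen values was not tested.

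Genes whose log2(TPM + 1) profile over the 16 libraries was most like that of COL1A1, among 9370 genes of at least 5 TPM on average, were SLC39A14 (Pearson r = 0.97), TNS1 (0.97), CALD1 (0.96), PDLIM7 (0.96) and EPHB2 (0.96). TNS1 and CALD1 kept the highest r after TMM scaling, at 0.96 and 0.92, and SLC39A14 had 0.84. Among the collagens COL1A1 and COL5A1 (r = 0.94, and 0.92 after TMM scaling) and COL5A1 and COL7A1 (0.93 and 0.89) were most alike, and COL5A2 was most like COL22A1 (0.86 and 0.90). For the mean profile of the 9 tested collagens the most alike genes were PLK3 (0.97), LTBP3 (0.97), which encodes a latent TGF-beta binding protein, NRP2 (0.97), TGFB1 (0.97), a TGF-beta ligand, and SLC20A1 (0.97). These coefficients describe libraries that share times, replicates and scaling.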

How the data were processed

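RNA-seq levels of 57773 genes in 16 libraries were deposited by the authors as TPM, 1 table for each replicate, and the submitters' processing notes name Bowtie and RSEM; the build and the counting strand were left unstated in the sources used. Depth is unknown, so no counting interval can be given. Columns carry the hours and each table a replicate number, which gave each library its group.

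From the TPM, log2(TPM + 1) was fitted with limma 3.58.1 in R 4.3.3, with 1 mean per time over all 16 libraries, empirical Bayes with a mean trend, and no replicate block, since the labels do not say what a replicate number shares. Genes needed at least 1 TPM in 2 libraries (16967 genes), and calls were made at a Benjamini-Hochberg adjusted p below 0.05 over all of them. Genes below 1 TPM in both 0 h libraries, among them COL3A1, COL22A1, MMP1, TIMP3 and ESAM, passed this filter through treated libraries alone. Libraries of 1 number deviated together in 28 of 28 pairs of times (correlation of deviations at least 0.128, median 0.438), so the numbers were taken to pair libraries, and the value with the replicate block is given where it changes a call of a gene or list named here. Two-sided exact permutation tests were used for chain ratios. With 2 libraries against 2, a permutation test of 1 gene cannot go below 0.333. The fit was tested on simulated data with independent noise in each library and changes set only in genes well above the filter at 0 h. That test did not cover deviations shared by a replicate, or genes as low at 0 h as COL22A1.

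Alternatives were a scaling by the trimmed mean of ratios (TMM, trimming 30% of ratios and 5% of levels), removal of small RNAs, the block, a pseudocount of 0.1, other filters, no mean trend and each library left out. The collagens and the gene lists were chosen with earlier results of these data known. Named genes were all 10 collagens, up to 3 called higher and 3 called lower per list that averaged 5 TPM or more in the group with more, and the 5 genes most like COL1A1 and the mean profile. A result of the TGF-beta responders is not reported here. COL5A1-AS1, antisense to COL5A1, lay at 0 to 0.71 TPM.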

Additional observations from a re-analysis of the deposited data

How the results depend on the processing

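The number of collagens called against 0 h depended most on the replicate block and on scaling. With the replicate block the calls in either direction were 3 at 12 and 96 h, 4 at 24, 36 and 48 h, 5 at 72 h, 5 for the mean of 24 to 96 h and 4 in the F test. With TMM scaling and the replicate block they were 2 at 6 h, 5 each at 12, 24, 36, 48 and 72 h, 6 at 96 h, 5 for the mean of 24 to 96 h, 1 for late against earlier treated times, 2 in the 7 steps between neighbouring times, both in the step to 6 h from 0 h (0 in all steps as reported by limma, where 3 at 12 h against 6 h and 1 at 72 h against 48 h had an unadjusted p below 0.05) and 6 in the F test. TMM scaling with the block called 1.76%, 3.55%, 4.7%, 5.39%, 5.55%, 4.83% and 4.1% of all tested genes higher from 6 to 96 h in order. Its F test called 11.5% of them. TMM scaling alone and removal of small RNAs each gave 1 at 12 h and 2 at 24, 48, 72 and 96 h and in the F test. At these times in order, TMM scaling alone called 0.884%, 1.96%, 2.49%, 2.13% and 1.52% of all tested genes higher. Its F test called 3.3% of them. A pseudocount of 0.1 gave 1 at 12 h. Without a filter the calls were 1 at 36 h and 3 for replicate 1 against replicate 2. Without 36 h replicate 2 and 48 h replicate 2 together, an alternative chosen after seeing the data, 0 were called at 36 h.

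With any 1 library left out the calls were 0 at 24 h, 0 to 1 at 36, 48 and 96 h, 1 to 3 for the mean of 24 to 96 h, 1 to 2 in the F test and 4 to 7 for replicate 1 against replicate 2. The COL1A1 to COL1A2 ratio then differed by 0.59 to 1.81, with an exact p of 0.0426 without 12 h replicate 1, the COL5A1 to COL5A2 ratio by -0.15 to 0.61, and the COL6A1 to COL6A2 ratio by -0.41 to -0.32.

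The differences of single collagens that changed sign were uncalled under both settings. With TMM scaling, with or without the block, they were COL5A2 at 6 h (0.50), COL6A2 at 48, 72 and 96 h (0.14, 0.11 and 0.13), and COL12A1 at 6, 24 and 48 h (0.17, 0.11 and 0.047) and for the mean of 24 to 96 h (0.0415). Without small RNAs they were COL5A2 at 6 h (0.19), COL6A2 at 72 h (0.094) and 96 h (0.043), and COL12A1 at 24 h (0.047). A pseudocount of 0.1 turned COL6A2 for the mean of 24 to 96 h (-0.013), and leaving out the 36 h and 48 h libraries of replicate 2 turned COL6A1 at 36 h (0.10).

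With 1 library left out the ranges that crossed 0 were, for COL3A1, -0.17 to 0.55 at 12 h, -0.034 to 0.54 at 24 h and -0.47 to 0.10 at 48 h, for COL1A1 -0.13 to 3.78 at 96 h, for COL7A1 -0.078 to 1.49 at 96 h, for COL5A1 -0.43 to 1.82 at 6 h and for COL5A2 -0.28 to 0.24 at 6 h. For COL6A1 they were -0.84 to 0.73 at 12 h and -0.71 to 0.10 at 36 h. For COL6A2 they were -0.49 to 1.03 at 12 h, -0.25 to 0.34 at 24 h, -0.51 to 0.42 at 72 h, -0.61 to 0.48 at 96 h and -0.13 to 0.13 for the mean of 24 to 96 h. For COL12A1 they were -0.15 to 0.68 at 12 h and -0.21 to 0.14 at 24 h. The causes were not tested. The 2 libraries at 0 h limit every comparison.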

Other observations

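Fibrillar collagens outside the 10 genes were few. COL27A1, a fibril-forming collagen of cartilage, lay between 2.69 and 16.3 TPM with a median of 12.6 TPM in the 10 libraries from 24 to 96 h, against 4.50 and 4.88 TPM at 0 h (log2 difference 0.95, limma adjusted p = 0.209). COL11A1, another fibril-forming chain, lay between 1.34 and 2.94 TPM at 24 to 96 h, against 0.72 and 1.28 TPM at 0 h (0.68, limma adjusted p = 0.117). Of the 6 genes of this list 2 were tested and 0 were called by limma, and both were called with TMM scaling. The share of all tested genes called higher with TMM scaling in that comparison was 4.28%. Of 3 other beaded filament collagens 0 passed the filter.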
